A study of Mus musculus with 8 samples.

Results

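The genes described here are a group known from the 2-cell mouse embryo: the Zscan4 family, Tcstv1 and Tcstv3, the Usp17l deubiquitinases, Zfp352 and Calcoco2. Members were all non-control probes whose gene name in the scanner tables was one of 9 gene symbols (Zscan4c, Zscan4d, Zscan4f, Tcstv1, Tcstv3, Usp17la, Usp17lc, Zfp352 and Calcoco2) or an older synonym of one, such as Dub1, Dub2, Gm397 or Ndp52. These are 9 of 27670 gene names on the array. The rule found 13 of 41174 distinct probes, which cover 7 of the 9 genes. No probe carried the name Zscan4d or Zscan4f, and those genes were not analysed here.

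The RNA came from R1, an established line of mouse embryonic stem cells, grown on gelatin with serum replacer. In the butyrate group (n = 4) the cells were kept without leukaemia inhibitory factor (LIF) in 0.2 mM sodium butyrate, an inhibitor of histone deacetylases, for 15 passages. In the LIF group (n = 4) they were kept in LIF, a cytokine that keeps such cells pluripotent, with no feeder cells. Both groups are thus 1 line without feeders, and they differ in 2 things at once, the presence of butyrate and the absence of LIF, which cannot be told apart. On each of 4 Agilent whole-genome arrays a butyrate sample (Cy5) was hybridised with its equally numbered LIF sample (Cy3). No array had the dyes swapped, and a dye effect therefore cannot be told apart from the treatment. Per the labels the quadruplicates were independent, with no word on separate cultures, so p-values cover only the spread among these samples, some of which may be technical.

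In mice, the main activation of the embryo's own genome takes place at the 2-cell stage, and the genes transcribed then include Zscan4 and Tcstv. A small share of mouse embryonic stem cells in culture passes at times through a state in which Zscan4 and other genes of that stage are transcribed. Zscan4 proteins carry a SCAN domain and zinc fingers, and in mouse embryonic stem cells they are known for telomere lengthening and genome stability. Tcstv1 and Tcstv3 lie beside each other and have also been tied to telomere length. Usp17la and Usp17lc, formerly Dub1 and Dub2, are deubiquitinating enzymes first described as genes that cytokines induce in blood cells. Zfp352 encodes a zinc finger protein, and Calcoco2 is the mouse counterpart of NDP52, which in human is a receptor for selective autophagy.

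The regions before the transcription start are shown because the families consist of close copies, so a reader can see how alike their members are. The windows are the RefSeq promoter sequences of assembly GRCm38.p6 for the 6 of 9 genes that have an entry, 250 bases before to 50 after the start, given 5′ to 3′ on the gene's strand. Capitals mark TATAAA.
Zscan4c, chr7:11005495-11005794, plus strand: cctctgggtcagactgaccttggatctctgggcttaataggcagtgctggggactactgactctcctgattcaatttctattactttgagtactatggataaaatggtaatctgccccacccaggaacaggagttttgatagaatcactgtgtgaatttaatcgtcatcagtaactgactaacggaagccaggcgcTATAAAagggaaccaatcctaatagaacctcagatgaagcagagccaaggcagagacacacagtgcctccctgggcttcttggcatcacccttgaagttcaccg
Zscan4d, chr7:11166099-11166398, minus strand: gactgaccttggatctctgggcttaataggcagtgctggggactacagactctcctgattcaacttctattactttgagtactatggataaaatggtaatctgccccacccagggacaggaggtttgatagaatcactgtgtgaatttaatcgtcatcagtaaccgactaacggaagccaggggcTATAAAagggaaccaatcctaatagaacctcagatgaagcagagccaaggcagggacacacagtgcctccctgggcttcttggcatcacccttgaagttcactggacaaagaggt
Zscan4f, chr7:11397665-11397964, plus strand: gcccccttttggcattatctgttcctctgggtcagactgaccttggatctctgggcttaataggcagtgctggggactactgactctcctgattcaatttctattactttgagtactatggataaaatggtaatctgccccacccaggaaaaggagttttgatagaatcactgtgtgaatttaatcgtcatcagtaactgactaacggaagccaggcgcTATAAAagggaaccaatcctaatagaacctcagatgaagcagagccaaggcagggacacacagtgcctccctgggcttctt
Usp17la, chr7:104856766-104857065, plus strand: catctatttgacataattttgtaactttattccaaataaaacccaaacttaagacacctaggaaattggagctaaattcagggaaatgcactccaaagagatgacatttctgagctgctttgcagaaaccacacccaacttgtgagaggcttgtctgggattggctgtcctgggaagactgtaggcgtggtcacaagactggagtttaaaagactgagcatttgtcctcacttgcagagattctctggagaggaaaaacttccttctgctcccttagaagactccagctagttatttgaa
Usp17lc, chr7:103416446-103416745, plus strand: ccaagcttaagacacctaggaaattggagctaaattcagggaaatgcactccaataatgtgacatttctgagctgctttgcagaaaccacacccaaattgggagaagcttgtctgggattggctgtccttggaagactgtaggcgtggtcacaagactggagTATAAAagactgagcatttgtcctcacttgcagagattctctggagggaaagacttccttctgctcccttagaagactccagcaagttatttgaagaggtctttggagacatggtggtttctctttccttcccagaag
Zfp352, chr4:90218570-90218869, plus strand: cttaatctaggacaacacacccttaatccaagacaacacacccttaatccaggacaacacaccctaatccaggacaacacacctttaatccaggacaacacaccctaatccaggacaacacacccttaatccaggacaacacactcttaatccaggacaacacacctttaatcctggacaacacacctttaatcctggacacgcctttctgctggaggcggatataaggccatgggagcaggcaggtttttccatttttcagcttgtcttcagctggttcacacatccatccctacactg
Where they overlap, the windows of Zscan4c and Zscan4f were 99.3% identical over 277 bases, and those of Zscan4c and Zscan4d 97.2% over 289 bases. The windows of Usp17la and Usp17lc were 95% identical over 258 aligned positions, 1 of them a gap. TATAAA, searched on both strands, stood in 14.2% of 27025 promoter windows of this length. It stood in 4 of the 6 windows shown, those of Zscan4c, Zscan4d, Zscan4f and Usp17lc, where it lay 54, 65, 31 and 88 bases before the annotated start. GGGCGG, again on both strands, stood in none of the 6 and in 35.9% of all windows. The 6 windows held 1 to 4 CpG dinucleotides, against a median of 7 over all windows. In the Zfp352 window the run ACAACACAC occurred 9 times, and it was the only 1 of 27025 windows with 2 or more copies. A match of letters is a description and not a site.

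The median signal was 110 to 111.4 in the butyrate channel and 62.8 to 66 in the LIF channel, and 62.7% to 63.9% of spots were well above background in butyrate and 57.9% to 61.2% in LIF. The arrays' log2 ratios correlated at 0.932 to 0.971. Stem cell markers were present in both groups but lower in butyrate: of 9 tested 8 fell, 5 of them at least 2-fold, and 1 (Nanog) rose, with a median log2 ratio of −1.10. Of all genes tested, 33% passed as lower, 1.97% as at least 2-fold lower, and 41.3% as higher. Without Dppa5a, which was saturated on every array, the other 8 markers summed to 55358 to 65294 in butyrate and 87557 to 94416 in LIF. Pou5f1, the master regulator of pluripotency, had a log2 ratio of −1.58 ± 0.22 and Nanog 0.23 ± 0.05 (SD, n = 4 arrays). Array 2 stood apart at low signal. On it 2 spots had a local background far above their own signal, and these moved the background that the correction estimated for the array. The median of 13857 spots not well above background on any array came out at 94.6 in butyrate and 161.1 in LIF on array 2, and at 64.8 to 65.1 and 58.8 to 60.2 on the others. With those 2 spots left out it was 65.3 and 59.6 on array 2. The dim members and several other dim genes are therefore also given without those spots, a setting added after seeing the data. Others, such as Tet2, Hdac2 and Sycp3, are given only with them.

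All 13 member probes were higher in butyrate than in LIF, on each of the 4 arrays. Zscan4c, Usp17la, Tcstv1, Tcstv3 and Calcoco2 rose 3.22-fold to 6.5-fold. The loess ratios of Zfp352 and Usp17lc, whose probes were dim, were smaller, and their size depended on the background treatment. The 13 probes all passed limma's test at an adjusted p of 0.05 over 25673 tested probes, but so did 39.7% of all probes in the higher direction and 72.2% in either direction. A pass is therefore common here. A change of at least 2-fold is less so: 10 of the 13 passed and rose by that much, against 4.09% of all probes. At 4-fold the count was 9 of 13, against 0.538%. With the scanner software's ratio, which has no offset, all 13 rose at least 2-fold (log2 ratios of 1.11 to 2.67), against 10.7% of all probes, and with the authors' value table all 13, against 10.3%. The members were chosen with earlier results of these data known, and the 13 probes cover only 7 genes. These counts beside the shares of all probes are therefore a description and not a test. The median log2 ratio of the 13 was 2.14, against 0.025 over all probes tested. By array it was 2.18, 2.03, 2.18 and 2.10. With each array centred on its median in place of loess it was 2.72, over an all-probe median of 0.37. The split of calls also moved with scaling. Of the probes called, 55% were higher with loess, 92% with median centring, 46.3% with the scanner software's ratio and 44.9% with the authors' value table.

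**Figure D1:**
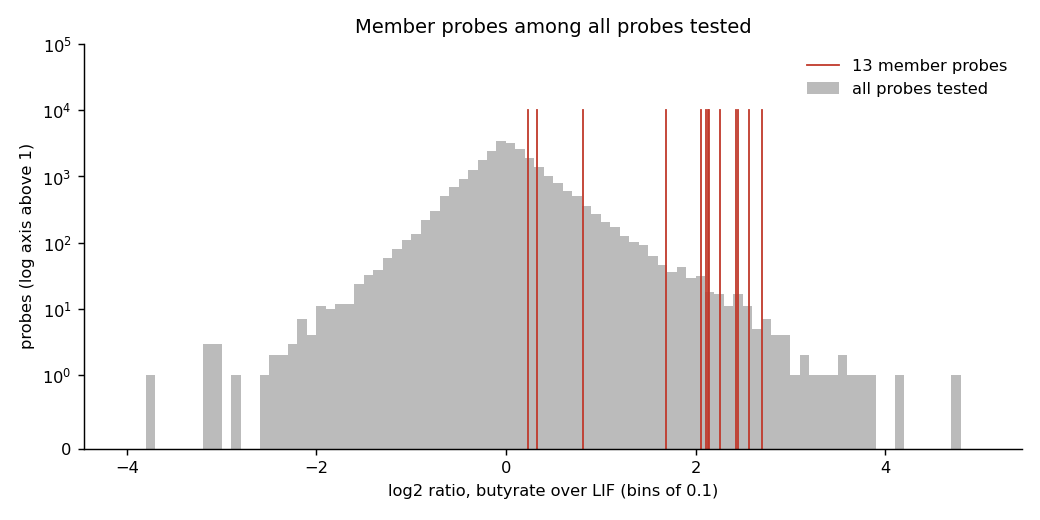
Distribution of the log2 ratio of butyrate over LIF (horizontal axis, bins of 0.1) over the 25673 tested probes, with the number of probes on a vertical axis that is logarithmic above 1. Red lines mark the 13 member probes: 10 lie at 1.69 or above, and the other 3 at 0.23, 0.32 and 0.81.

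The Zscan4 family was measured by 2 probes, both named for Zscan4c (file name Gm397, transcript NM_001013765, chromosome 7). On probe A_52_P302671 the normalized intensities were 18340, 18570, 20350 and 18230 in butyrate, against 3325, 3639, 3625 and 3258 in LIF. Every butyrate sample lay far above every LIF sample. Its log2 ratio was 2.45 ± 0.07 (SD, n = 4 arrays; 95% interval 2.36 to 2.54), a 5.45-fold increase (adjusted p = 7.03e-09). The second probe, A_52_P363843, read 3072, 3175, 3507 and 3264 in butyrate, against 704.1, 806, 773.6 and 735.1 in LIF. Here too the groups lay apart, with array 3 high in butyrate on both probes. Its log2 ratio was 2.11 ± 0.09, a 4.31-fold increase (adjusted p = 1.15e-08). RefSeq lists Zscan4d as a synonym of Zscan4c as well as a gene, and the copies of the cluster are near-identical. Which of them the probes bind was not tested, since the probe sequences were not used here, so the values are best read as those of the family. In bulk RNA, more cells in the Zscan4 state and more RNA per such cell cannot be told apart, and this holds for every result below.

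Tcstv1 and Tcstv3, which lie beside each other on chromosome 13, rose by similar amounts on 5 probes. Tcstv1 probe A_51_P481777 had intensities of 5364, 5824, 6166 and 6024 in butyrate, against 1184, 1363, 1365 and 1407 in LIF. Its log2 ratio of 2.14 ± 0.05 is a 4.40-fold increase (adjusted p = 7.28e-09). Probe A_52_P66425 of the same gene gave 2.14 ± 0.04 on the log2 scale (4.42-fold, adjusted p = 7.28e-09). The third Tcstv1 probe, A_51_P481768, gave a smaller ratio of 1.69 ± 0.14 (3.22-fold, adjusted p = 7.16e-08). On it, array 2 read 392.9 in LIF, against 284.1, 293.7 and 286.5 on the other arrays. Without the 2 aberrant spots that value was 302.5 and the ratio 1.74 ± 0.05. For Tcstv3, probe A_52_P165856 read 3172, 3389, 3518 and 3199 in butyrate, against 736.7, 856.3, 806.5 and 798.9 in LIF (log2 ratio 2.05 ± 0.07, 4.15-fold, adjusted p = 1.02e-08). Probe A_51_P143200 had a log2 ratio of 2.26 ± 0.16 (4.80-fold, adjusted p = 3.11e-08), and 2.34 ± 0.04 without the 2 spots. On all 5 Tcstv probes the butyrate and LIF samples did not overlap. The files do not show whether probes of one gene also bind the other.

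**Figure D2:**
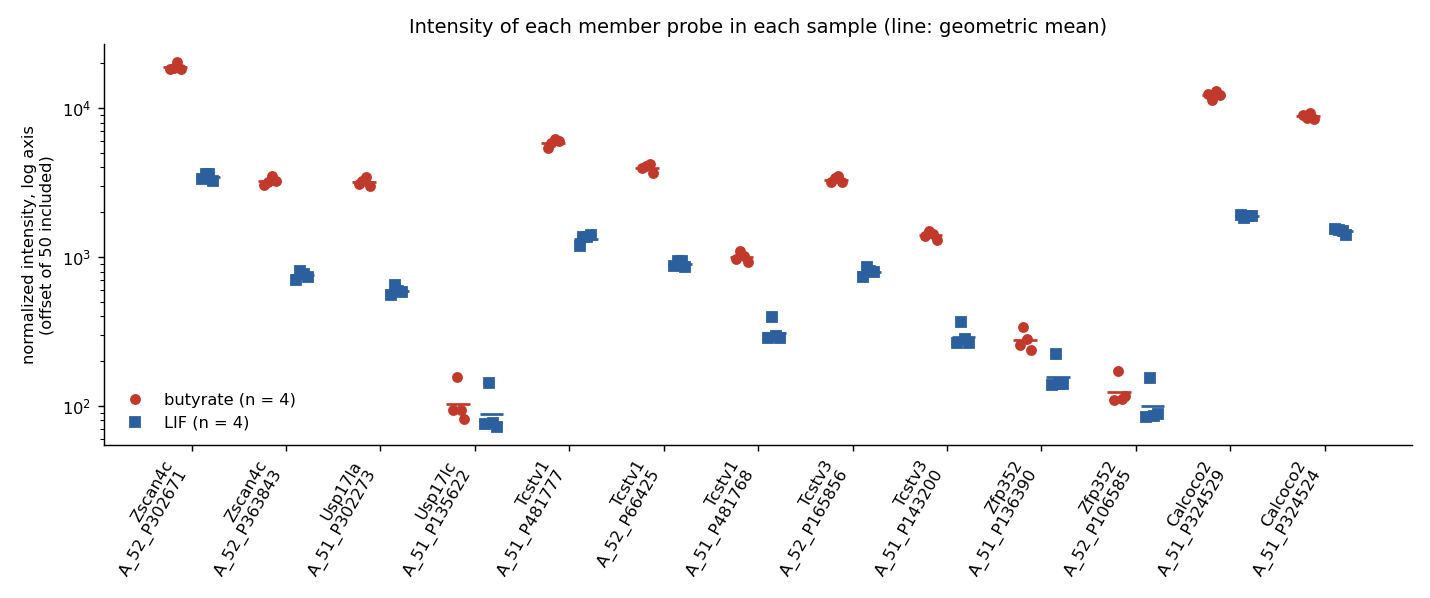
Normalized intensity (logarithmic axis, offset of 50 included) of the 13 member probes in each sample, with butyrate as red circles and LIF as blue squares (n = 4 each) and the geometric mean as a line. The groups lie apart for 11 probes. They overlap for Usp17lc and for Zfp352 probe A_52_P106585, where array 2 reads 156.7 and 172.2 in butyrate and 141.8 and 155 in LIF.

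The Usp17l genes gave unequal ratios. Usp17la (file name Dub1, chromosome 7), on probe A_51_P302273, read 3085, 3228, 3457 and 2994 in butyrate, against 552.2, 646.3, 592.5 and 584.9 in LIF. The groups lay well apart, and the log2 ratio was 2.43 ± 0.11 (95% interval 2.32 to 2.53), a 5.37-fold increase (adjusted p = 9.64e-09). Usp17lc (file name Dub2), on probe A_51_P135622, read 94.44, 156.7, 94.06 and 82.08 in butyrate, against 75.75, 141.8, 77.09 and 72.01 in LIF. All values but those of array 2 lay low, and the groups overlapped. In LIF no array had this probe well above background. The bound computed for such probes was 1.18-fold, which here equals the estimate and is no firm floor. The log2 ratio was 0.23 ± 0.08 (95% interval 0.14 to 0.33, limma adjusted p = 0.00114). With the arrays centred on their medians it did not pass (adjusted p = 0.0593). Without the 2 aberrant spots, array 2 read 92.01 in butyrate and 72.86 in LIF, the groups no longer overlapped and the ratio was 0.28 ± 0.07. The uncorrected signals were 97.8, 95.25, 96.39 and 85 in butyrate, against 49.72, 47.83, 50.53 and 50.39 in LIF. The local backgrounds averaged 50.8 and 47.3, so the LIF signal lay at its background. The scanner software's ratio, which has no offset, averaged 1.53 ± 0.49 on the log2 scale, with array 2 highest. The size of the Usp17lc change thus depended on how the background was treated, and the difference in ratio between the 2 Usp17l probes was not tested. Usp17lb (file name Dub1a), a close copy outside the members, is described with the other 2-cell genes.

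Zfp352 (chromosome 4) changed least among the members that were well above background in both groups. Probe A_51_P136390 read 255.7, 337.1, 280.7 and 238.9 in butyrate, against 137.6, 223.2, 141.1 and 141.4 in LIF. The lowest butyrate sample lay only just above the array 2 sample of LIF. The log2 ratio was 0.81 ± 0.17 (1.75-fold, adjusted p = 7.22e-06), and 0.87 ± 0.10 without the 2 aberrant spots. The second probe, A_52_P106585, read 109.4, 172.2, 111.3 and 116.1 in butyrate, against 84.18, 155, 85.78 and 88.68 in LIF. Its groups overlapped through array 2, and the ratio was 0.32 ± 0.12 (1.25-fold, adjusted p = 0.000404). Without the 2 spots array 2 read 105.9 and 84.9, no overlap was left and the ratio was 0.37 ± 0.03 (1.29-fold). The scanner software's ratios were larger, 1.203 ± 0.126 and 1.112 ± 0.187 on the log2 scale.

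Calcoco2 (file name Ndp52, transcript AK145542, chromosome 11) had loess ratios above those of the other members on both of its probes. With the scanner software's ratio, Tcstv3 probe A_51_P143200 (2.574) lay above the second Calcoco2 probe (2.565), and with the authors' value table Tcstv3 (2.573) and Usp17la (2.535) did so (2.532). Probe A_51_P324529 read 12360, 11330, 12970 and 12180 in butyrate, against 1919, 1820, 1878 and 1890 in LIF. The groups lay far apart and the log2 ratio was 2.70 ± 0.06 (95% interval 2.61 to 2.79), a 6.50-fold increase (adjusted p = 5.92e-09). Probe A_51_P324524 read 8939, 8581, 9296 and 8399 in butyrate, against 1541, 1523, 1491 and 1411 in LIF. Its ratio of 2.56 ± 0.06 (5.90-fold, adjusted p = 5.92e-09) differed from that of the first by 0.14.

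Over the 13 probes the groups did not overlap for 11, against 22.3% of all tested probes whose 4 butyrate intensities all lay above the 4 LIF intensities. Without the 2 aberrant spots the groups lay apart for all 13, but the share of all probes was not computed in that setting. Probes of 1 gene differed by up to 0.49 on the log2 scale (Zfp352), by 0.46 for Tcstv1, 0.34 for Zscan4c, 0.21 for Tcstv3 and 0.14 for Calcoco2. Of the 13 probes, 12 had their lowest ratio on array 2. With the 2 spots left out this held for 4, and with the scanner software's ratio also for 4. Ordered by log2 ratio among all 25673 probes, 10 member probes stood between places 28 and 251.

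**Figure D3:**
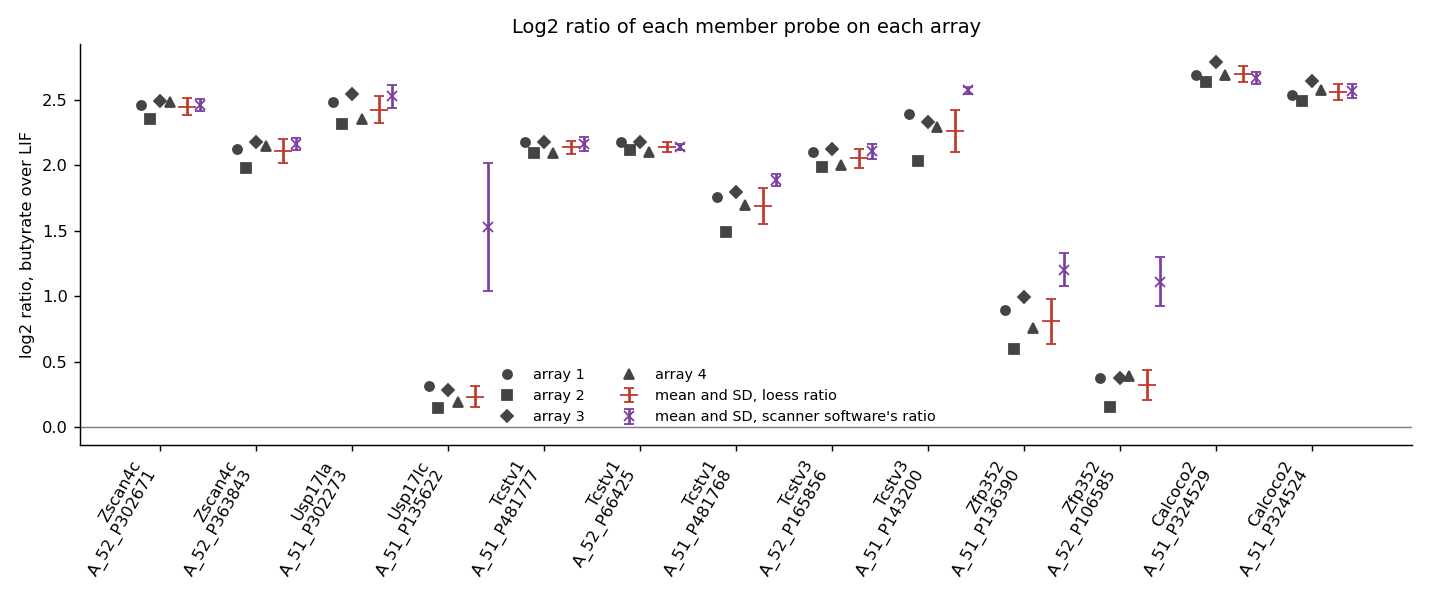
Log2 ratio of butyrate over LIF of each member probe on arrays 1 to 4 (dark symbols), with the mean and SD of the loess-normalized ratio in red and of the scanner software's ratio in purple. All ratios lie above 0. Both means nearly coincide for bright probes, and for Usp17lc they are 0.23 and 1.53.

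By the distance between ratios over the 4 arrays, the genes most like the mean of the 2 Zscan4c probes were Col4a2, Tgm2, Lpl, Tax1bp3 and Psmb8, at distances of 0.065 to 0.15. Col4a2 (a chain of basement membrane collagen) had a log2 ratio of 2.31 and Tgm2 (a transglutaminase) 2.28. Lpl (lipoprotein lipase), Tax1bp3 and Psmb8 (an immunoproteasome subunit) had 2.26, 2.28 and 2.29. With 1 contrast and 4 arrays this likeness says only that the ratios were close.

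The other genes known from the 2-cell stage moved in both directions. The list held 62 genes, of which 24 had a probe on the array and 15 were bright enough to test. Of these 10 rose, 4 fell and 1 did not pass, where 41.3% of all 17198 genes passed as higher and 33% as lower. The list's median log2 ratio was 0.29, against 0.031 over all genes. Probes disagreed for 2 of these genes. Eif1a, a translation initiation factor, counts as a fall by its brightest probe (−0.22), but another probe rose by 1.48, and AF067063 counts as a rise of 0.21 where its other probe gave 1.57. The rises numbered 8 in place of 10 with the scanner software's ratio or the authors' value table. Here 4 rose at least 2-fold, where 4.97% of all genes did so, and 1 fell by that much, where 1.97% of all genes did so. Pramel7, which sustains naive pluripotency, read 437.1, 525.9, 452 and 435 in butyrate, against 143.5, 229.9, 143.8 and 134.7 in LIF (log2 ratio 1.54 ± 0.23, adjusted p = 6.8e-07). Sp110, a nuclear body protein, gave 1.46 ± 0.20, and Arg2, a mitochondrial arginase, 1.25 ± 0.22. Usp17lb, the close copy of Usp17la, read 318.8, 413.9, 349.9 and 390.5 in butyrate, against 115.8, 209.6, 117.8 and 131.3 in LIF (1.40 ± 0.28, adjusted p = 2.88e-06). In all of these, array 2 was the highest sample in both groups. Without the 2 aberrant spots the ratios were 1.64 ± 0.04 for Pramel7, 1.54 ± 0.09 for Sp110, 1.34 ± 0.05 for Arg2 and 1.502 ± 0.082 for Usp17lb. With the scanner software's ratio they were 2.20, 1.94, 1.92 and 2.46. Patl2, an RNA-binding protein of the oocyte, fell to 137, 182.6, 137.4 and 130.8 in butyrate, against 406, 416.7, 402.9 and 429.6 in LIF (log2 ratio −1.51 ± 0.22, −1.61 ± 0.07 without the 2 spots and −2.36 with the scanner software's ratio). Several best known 2-cell genes, among them Tdpoz1, were too dim to test.

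Among 11 genes listed here as upstream activators of this programme, 10 were tested, and 5 rose and 5 fell. Over all genes, 41.3% passed as higher and 33% as lower. Whether each listed gene, such as Tet1, Tet2 or Lin28a, raises or restrains the programme in these cells was not tested. Duxf3, the mouse Dux gene that drives many 2-cell genes, had no probe under that name. Dppa2, which acts upstream of Dux, had a log2 ratio of 0.13 ± 0.07 (adjusted p = 0.0149), a call lost with the scanner software's ratio (0.126), in the single-channel fit with no replicate block (0.0525), with the authors' value table (0.144) and without replicate 3 (0.0869). Its partner Dppa4 fell, reading 4525, 4381, 4390 and 4071 in butyrate, against 7382, 7248, 7318 and 6994 in LIF (−0.74 ± 0.03). The largest falls were those of Tet1, a methylcytosine dioxygenase, at −1.39 ± 0.34, and Nr5a2, an orphan nuclear receptor, at −1.19 ± 0.22. Tet2 gave −0.61 ± 0.30. Tbx3, a T-box factor reported to raise Zscan4 in mouse embryonic stem cells, rose by 0.39 ± 0.26 on the log2 scale. With median centring Dppa4 and Tet2 no longer passed.

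Of 27 known repressors of the programme, all tested, 7 rose, 10 fell and 10 did not pass, and the median log2 ratio was −0.02. Over all genes, 41.3% passed as higher and 33% as lower. E2f6 counts as a rise by its brightest probe (0.43), but another, dim probe gave −0.15. Ehmt2, which methylates histone H3 at lysine 9, fell most (−0.82 ± 0.01), reading 14460, 13610, 14410 and 14140 in butyrate, against 25540, 24080, 24990 and 25030 in LIF. L3mbtl2, of a Polycomb complex, gave −0.51 ± 0.11, and Chaf1b, of the chromatin assembly factor CAF-1 whose depletion is known to raise 2-cell genes, −0.50 ± 0.05. Of the class I histone deacetylases, Hdac1 rose by 0.23 ± 0.03 and Hdac2 gave −0.47 ± 0.21. Trim28, the corepressor of retroelements, rose by 0.17, a call lost with the authors' value table (adjusted p = 0.423), and Kdm1a, a histone demethylase, had −0.02 (adjusted p = 0.652). Smchd1 and Rcor1 rose by 0.66 ± 0.19 and 0.53 ± 0.18. These small shifts depend on scaling: with median centring the ratios of L3mbtl2, Chaf1b, Hdac2 and Rif1 turned to 0.08, 0.05, 0.07 and 0.14 and did not pass, nor did that of Ehmt2 (−0.32).

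Of 20 genes of telomere maintenance, the process in which Zscan4 acts, 4 rose, 9 fell and 7 did not pass, with a median of −0.06. Over all genes, 41.3% passed as higher and 33% as lower. Terf2 counts as a fall by its brightest probe (−0.18), and another gave −0.11, but further probes rose by 0.293 and 0.235. Terc, the RNA template of telomerase, gave different results on its 2 probes. The brighter, A_51_P248935 (transcript AK085092), read 216, 304.4, 227.8 and 213.2 in butyrate, against 80.35, 165.7, 82.01 and 90.81 in LIF (1.25 ± 0.27, adjusted p = 4.5e-06). Its LIF signal was well above background on 2 arrays, and its ratio was 1.43 ± 0.15 without the 2 aberrant spots and 3.40 ± 0.42 with the scanner software's ratio. The other, A_52_P544476 (transcript NR_001579), did not pass (0.08 ± 0.08, adjusted p = 0.123). Dkc1, which stabilises Terc, gave −0.98 ± 0.12 and the shelterin subunit Terf1 −0.74 ± 0.12. Terf2ip, also of shelterin, rose by 0.51 ± 0.09. Rif1, which restrains both Zscan4 and telomere lengthening in mouse embryonic stem cells, gave −0.45 ± 0.27. With median centring Dkc1 and Terf1 did not pass and Rif1 turned to a positive ratio.

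**Figure D4:**
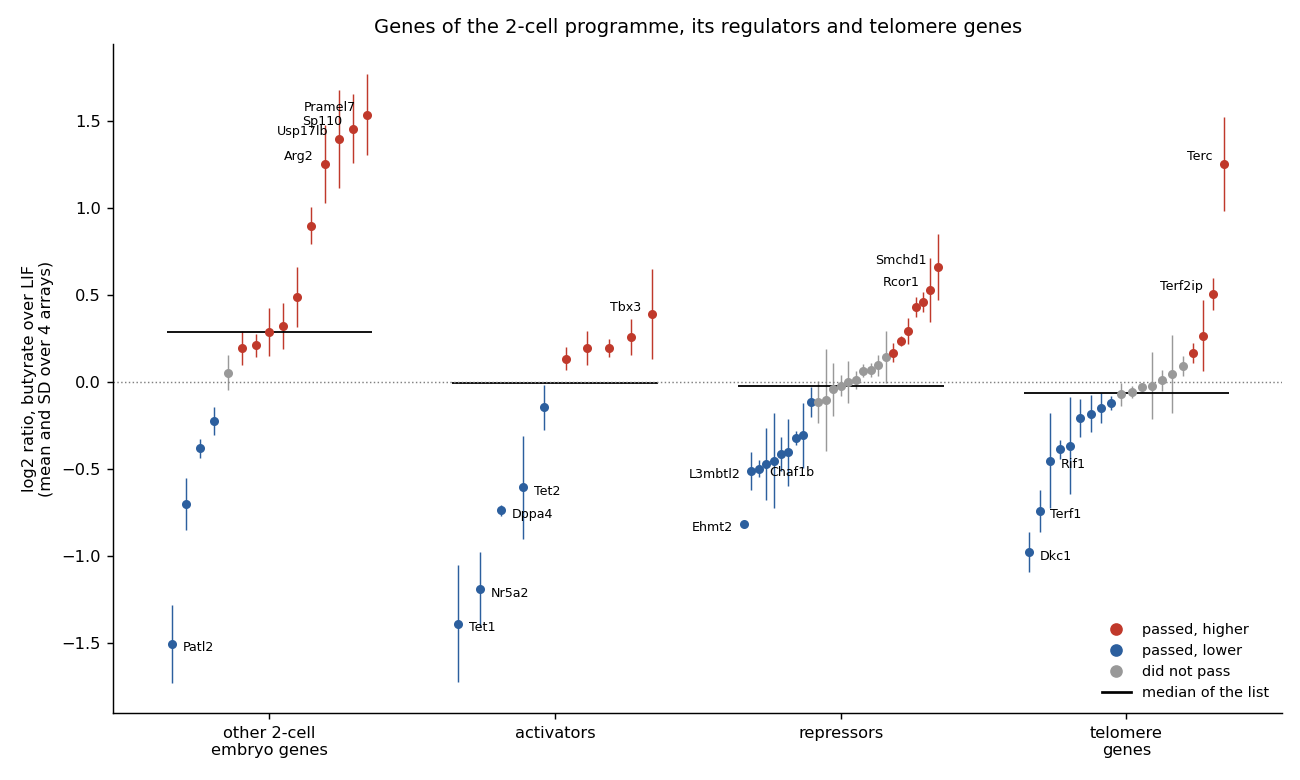
Log2 ratio of butyrate over LIF (mean and SD over 4 arrays) of the other 2-cell genes (15), activators (10), repressors (27) and telomere genes (20) that were tested, coloured by the outcome of limma's test, with each list's median as a line. The medians are 0.29, −0.005, −0.02 and −0.06, and the ratios of L3mbtl2, Chaf1b, Hdac2 and Rif1 turn positive with median centring.

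Most tested trophoblast and fibroblast markers were also higher in butyrate, where 41.3% of all genes passed as higher and 33% as lower. All 9 tested of 10 trophoblast markers rose, and their summed intensity was 18523 to 20706 in butyrate and 2959 to 3974 in LIF. Of 9 tested fibroblast markers 7 rose and 2 fell (Fbln1, −0.52 ± 0.09, and Thy1, −0.18 ± 0.06). Their sums were 10862 to 11405 in butyrate and 2682 to 3378 in LIF. Col1a1 alone read 6665 to 6829 in butyrate and so made up most of that sum. Cdx2, which specifies trophectoderm, had a log2 ratio of 2.77 ± 0.45 (2.92 ± 0.18 without the 2 aberrant spots). Col1a1, fibrillar collagen, had 4.15 ± 0.16 on its brightest probe and 2.09 ± 0.32 on another. In LIF, the trophoblast marker Elf5 and the fibroblast marker Dcn stayed near background. Dcn was dim in butyrate too (77.95, 142.2, 73.49 and 71.51, against 71.98, 133, 71.57 and 66.02 in LIF). Its log2 ratio was 0.09 ± 0.04. Neither Tpbpa nor Lum was bright enough to test. The part of these cell types in the rise of the members was not tested.

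Because the members lie on 4 chromosomes, the genes beside them were described too, a step added after their values were seen. Gene order is that of RefSeq GRCm38.p6, and up to 5 tested genes on each side were taken. The 10 neighbours of the Zscan4 cluster had a median log2 ratio of −0.14 (4 rose, 6 fell). The 10 beside each of the Usp17lc and Usp17la positions had medians of −0.04 and −0.003. Most of those at the Usp17lc position are olfactory receptor genes, and how bright their probes were, beyond the filter, was not examined. The 5 beside the Tcstv genes had −0.03 and the 10 beside Zfp352 −0.009. Among the Tcstv neighbours, AF067063 is itself on the list of other 2-cell genes. It counts here at 0.21 by its brightest probe, where its other probe gave 1.57. For Zfp352, 3 neighbours rose more than the gene itself: Cdkn2b (1.89 ± 0.09), Cdkn2a (1.35 ± 0.28), both inhibitors of the cell cycle, and Mtap (1.14 ± 0.06). Of the 10 neighbours of Calcoco2, 8 rose and none fell, with a median of 0.58; the difference from the other loci was not tested. They included the homeobox gene Hoxb9 at 1.48 ± 0.36. Over whole chromosomes, the median log2 ratio was 0.21 on chromosome 11, which holds Calcoco2. There 60.4% of 1249 genes were higher, against 41.3% of all genes. The median was −0.06 on chromosome 7 (31.9% of 1179 genes higher), which holds the Zscan4 and Usp17l genes. On chromosomes 4 (Zfp352) and 13 (Tcstv genes) it was −0.004 and −0.006. Of chromosomes without a member, 8 had a median of 0.29 (66.9% higher) and 19 of 0.18 (57.4% higher).

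**Figure D5:**
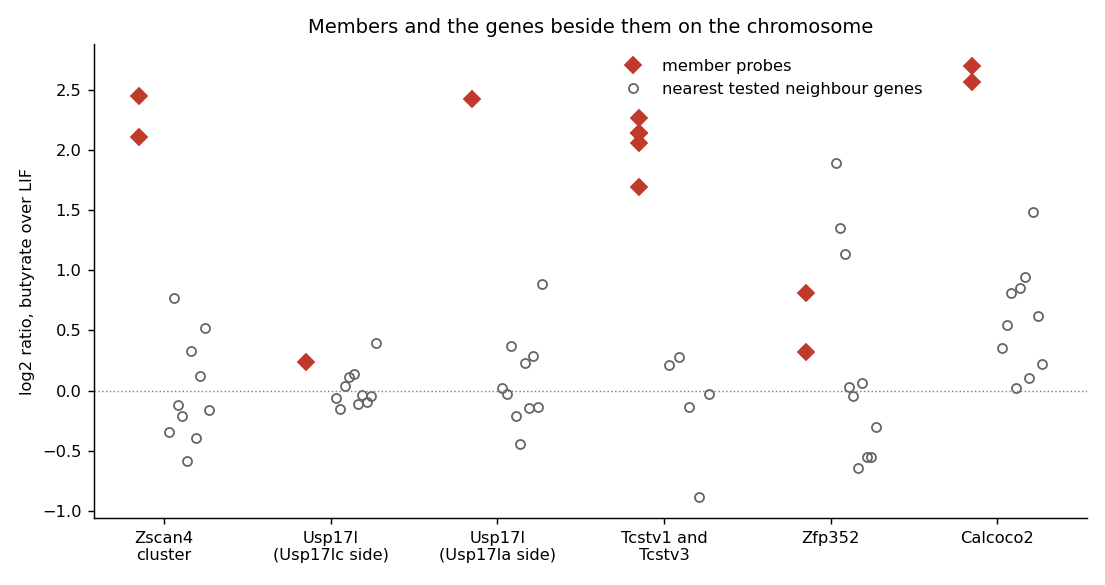
Log2 ratio of butyrate over LIF of the member probes (red diamonds) and of the nearest tested genes on the same chromosome (open circles), by locus. By the brightest probe of each gene, the neighbours of the Zscan4, Usp17l and Tcstv loci lie between −0.88 and 0.88, and those of Calcoco2 between 0.02 and 1.48. Another probe of the Tcstv neighbour AF067063, not drawn, gave 1.57.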

How the data were processed

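Total RNA of 8 samples was measured on 4 arrays of 2 colours. Per the submitters' processing notes, scans were read with Agilent Feature Extraction 9.1. Both samples of an array share a scan, so 8 deposited scanner files were 4 distinct ones. The deposited files give intensity per spot (mean signal and local background) and, per the file headers, a log10 ratio of Cy5 over Cy3, here turned into log2. The value table of the authors is in log2 units: against its own channel's processed signal on that scale, every column gave a correlation of at least 0.9996, and all medians were 6.487. Other deposited columns used were marks of outliers, saturation and signal above background.

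Background was corrected with limma 3.58.1 in R 4.3.3 (normexp, offset 50), and each array was loess-normalized, control spots having weight 0. The offset lowers the fold of dim probes. Of 43379 non-control spots per array, 14 outlier spots were set to missing over the arrays. Repeated spots were averaged per probe, giving 41174 probes. The test took the 25673 that were well above background on at least 3 of 4 arrays in either channel. limma's lmFit and eBayes compared the 4 log2 ratios of butyrate over LIF with 0, with Benjamini-Hochberg adjustment over all probes tested. Values are mean ± SD over arrays. Lists used the brightest tested probe of each gene. For a probe not well above background on any LIF array, a bound on the fold was computed. It was taken against the higher of the probe's own value and the dimmest signal well above background on each array. The bound came from channel values after loess and Aquantile and is open to dye bias. Where the probe's own value is the higher, the bound equals the estimate. Names came from the RefSeq table of GRCm38.p6 by accession (22951), symbol (6659) or synonym (3109), and 8455 probes kept the file's name.

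Members and lists were chosen with earlier results of these data known. Named were all members, up to 5 genes of each list with the largest change among those that passed and had the same sign on the 4 arrays, Hdac1, Hdac2, Trim28, Kdm1a, Dppa2, Dppa4, Tbx3, Rif1 and Tet1, and the 5 genes nearest to Zscan4c. Other names were chosen after their values were seen. The ratio within an array takes out the replicate number, since both samples of a number share an array: samples of one number deviated from their group means with correlations of 0.15 to 0.30, and samples of different numbers with −0.22 to 0.09. Alternatives were other background corrections and offsets, the scanner software's ratio, median centring, other filters, 1 probe a gene, a variance trend, single-channel fits, the authors' value table and leaving out 1 array at a time. The limma step was tested on simulated data. Promoters were read and aligned with Biopython 1.88 in Python 3.11.15, and figures drawn with matplotlib 3.10.9.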

Additional observations from a re-analysis of the deposited data

Results flagged for a closer look

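Among 39 groups of 4 values (13 probes, each with butyrate intensities, LIF intensities and log2 ratios), 7 had 1 sample far from the other 3 by Dixon's criterion. Chance marks about 1 in 20 groups. Of the 7, 6 were on array 2. In LIF these were Tcstv1 probe A_51_P481768 (392.9), Usp17lc (141.8), Zfp352 probe A_51_P136390 (223.2) and Zfp352 probe A_52_P106585 (155). In butyrate it was Zfp352 probe A_52_P106585 (172.2), whose log2 ratio on that array (0.15) was also marked. None of these 6 was marked once the 2 aberrant spots of array 2 were left out, and 3 groups were then marked in all. The other was Zscan4c probe A_52_P302671 in butyrate on array 3 (20350), which stayed marked.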

How the results depend on the processing

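The 13 member probes kept their direction in every alternative that held them. All passed in each of them except Usp17lc with median centring (0.23, adjusted p = 0.0593), which left 12 of 13. With 1 probe a gene the count was 7, by construction. The members' median log2 ratio was 2.12 to 2.17 elsewhere and 2.72 with median centring, and 2.12 to 2.15 with 1 replicate left out. Without replicate 1 to 4 in turn, 16369 to 18404 probes were called. The paired ratios called 18540, single channels with no replicate block 18041 and with a random replicate block 18677. All 13 members passed in both, and of the results examined only the call of Dppa2 was lost with no replicate block.

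Median centring moved most of the list counts by over 1.5 times. Other 2-cell genes that rose numbered 11, in place of 10, and 8 with the scanner software's ratio or the authors' value table. Other 2-cell genes that fell numbered 2 in place of 4, activators and repressors that rose 23 in place of 12 and that fell 2 in place of 15, telomere genes that rose 12 in place of 4 and that fell 0 in place of 9. Chaf1b (0.045), Hdac2 (0.072), L3mbtl2 (0.082) and Rif1 (0.138) turned to positive ratios. Loess removes a trend of the ratio with intensity and centring does not, and the cause was not tested further. Added after seeing the data, a normexp fit without the 2 spots of array 2 called 19513 probes and one by maximum likelihood 18541. Signals near background limit Usp17lc and Zfp352, and the uniform dye orientation limits every ratio.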

Other observations

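Of 22 listed relatives of the members by family or function, 18 were tested. Of these 7 rose, 5 fell and 6 did not pass, with a median log2 ratio of 0.004, where 41.3% of all genes were called higher and 33% lower. Nbr1 counts as a rise by its brightest probe (0.19), but another probe gave −0.15. Sqstm1 (p62), like human NDP52 a receptor for selective autophagy, rose most. It read 35500, 34880, 37070 and 34490 in butyrate, against 11450, 10860, 10840 and 10950 in LIF (1.69 ± 0.06, 3.22-fold, limma adjusted p = 1.87e-08). Tollip, another autophagy adaptor, rose by 0.38 ± 0.07, and the deubiquitinase Usp36 by 0.59 ± 0.11. Usp1, also a deubiquitinase, gave −0.50 ± 0.05 and Zscan10, a SCAN zinc finger gene of pluripotent cells, −0.36 ± 0.04.

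Of 8 germ line markers tested, 1 rose (Dazl, 0.56 ± 0.12), 5 fell and 2 did not pass, where 41.3% of all genes were called higher and 33% lower. The summed intensity of the germ line markers was 4129 to 4821 in butyrate and 5125 to 5761 in LIF. Sycp3, of the synaptonemal complex, fell most (−1.97 ± 0.21).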
